A study of Rattus norvegicus with 4 samples.

Results

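Transcripts for prostaglandin synthesis, reception and breakdown were followed in rat ovaries (Rattus norvegicus) cultured with anti-Müllerian hormone (AMH) or without it. The set was 10 genes, namely the cyclooxygenases Ptgs1 and Ptgs2, the terminal synthases Ptges, Ptges2, Ptgis and Ptgds, the receptors Ptger2, Ptger4 and Ptgfr, and the inactivating dehydrogenase Hpgd. Every probe set that the platform annotation assigns to 1 of these symbols alone was taken, which gave 14 of the 31099 probe sets on the array and 10 of the 14218 genes it names. Of the genes, 6 had 1 probe set and 4 (Ptgs1, Ptges, Ptgfr and Hpgd) had 2. The genes were chosen by their measured AMH to control differences in these same 4 arrays, so their values are given as a description, with no p. Where a member is said to be called, this states on which side of the threshold it fell in the fit over all probe sets and supports nothing, since the same values chose it.

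The tested ovaries were whole organs of pups at postnatal day 4, floated on filters for 10 days with 50 ng/mL AMH, and the control ovaries were kept the same way with no hormone added. Both groups shared a DMEM and Ham's F-12 medium with 0.1% bovine serum albumin, 0.1% Albumax, 27.5 µg/mL transferrin, 200 µg/mL insulin and 0.05 µg/mL ascorbic acid, besides penicillin and streptomycin. Each RNA sample was a pool of about 10 ovaries of a single treatment, and each group had 2 independent pools, each on an Affymetrix array of its own (1 colour). A pool of whole organs mixes all ovarian cell types, so fewer cells of a type and less RNA per cell cannot be told apart in any value below. The sources used here do not give the strain of the rats.

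Prostaglandins are short-range lipid signals made from arachidonate, which phospholipases cut from membranes. The cyclooxygenases turn arachidonate into a common precursor, terminal synthases convert that precursor into prostaglandin E, F, D or prostacyclin, each acts through its own G protein-coupled receptors, and Hpgd ends the signal by oxidation. In the adult ovary Ptgs2 is induced in granulosa cells by the luteinising hormone surge and is needed for ovulation in mice, while prostaglandin F acting through Ptgfr brings about regression of the corpus luteum. AMH, made by granulosa cells of growing follicles, is known to hold primordial follicles back from entering growth.

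The stretches of genome just before the annotated starts of Ptgs2, Hpgd and Ptgds are shown because these 3 members passed the threshold described below, Ptgs2 and Hpgd as higher and Ptgds as lower with AMH. The sequences are those of RefSeq for the GRCr8 assembly, 250 bases each, written 5′ to 3′ on the gene's strand and ending at the base before the start. They lie at chr13:64713813-64714062 (plus strand) for Ptgs2, chr16:39034832-39035081 (minus strand) for Hpgd and chr3:28682979-28683228 (minus strand) for Ptgds. Capitals mark matches, on either strand, to 6 motifs: the E-box CACGTG, the C/EBP-type motif TTNNGCAA, the full cAMP response element TGACGTCA, the TATA box TATAAA, the GC box GGGCGG and the BMP SMAD-type motif GGCGCC.
Ptgs2: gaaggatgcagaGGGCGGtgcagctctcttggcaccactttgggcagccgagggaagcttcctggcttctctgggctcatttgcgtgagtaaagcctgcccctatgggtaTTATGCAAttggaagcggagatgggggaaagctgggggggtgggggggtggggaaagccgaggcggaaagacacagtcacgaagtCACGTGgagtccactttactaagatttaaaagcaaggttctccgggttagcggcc
Hpgd: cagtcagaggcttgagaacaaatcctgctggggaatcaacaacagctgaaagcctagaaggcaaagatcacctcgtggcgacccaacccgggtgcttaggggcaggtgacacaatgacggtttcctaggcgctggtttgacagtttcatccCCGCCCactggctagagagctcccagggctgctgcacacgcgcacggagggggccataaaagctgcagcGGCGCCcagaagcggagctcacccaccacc
Ptgds: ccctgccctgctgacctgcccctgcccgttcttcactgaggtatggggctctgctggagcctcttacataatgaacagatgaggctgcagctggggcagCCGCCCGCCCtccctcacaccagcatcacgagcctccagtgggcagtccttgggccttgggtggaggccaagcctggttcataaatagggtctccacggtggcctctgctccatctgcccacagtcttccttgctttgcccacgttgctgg
The Ptgs2 stretch held an E-box from 55 to 50 bases before the start, a C/EBP-type match (TTATGCAA) from 140 to 133 and a GC box from 238 to 233. The Hpgd stretch held the BMP SMAD-type motif from 30 to 25 bases before the start and a GC box, on the opposite strand, from 99 to 94, and the Ptgds stretch held 2 overlapping GC boxes on the opposite strand between 151 and 142. Among 33469 rat promoter stretches of the same length, 5.59% held the E-box, 9.22% the C/EBP-type motif, 30.5% the GC box and 8.69% the BMP SMAD-type motif. Of the 8 members with a stretch in the table (all but Ptges2 and Ptgis), Ptgs2 alone held the E-box, Ptgs2, Ptges and Ptgfr the C/EBP-type motif, Ptgs2, Ptges, Ptgds and Hpgd the GC box, and Ptgfr and Hpgd the BMP SMAD-type motif. The full cAMP response element (1.59% of all stretches) and the TATA box (12.9%) were in none of the 8. A match is a description of letters and not evidence of binding.

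Several facts of the arrays bear on every value that follows. The deposited intensities had been scaled so that the mean without the lowest and highest 2% of probe sets was 125 on each array. The ratio of 3′ to 5′ GAPDH control probe sets was 6.56 and 6.37 on the AMH arrays, against 1.17 and 1.27 on the control arrays. That of beta-actin was 10.7 and 14.4 on the AMH arrays, against 3.17 and 4.6 on the control arrays. Both ratios separate the AMH arrays from the control arrays, so whatever they reflect cannot be told apart from AMH here. Its part in the values below was not tested. The chip identifiers end in 2 strings and 0 of them is shared by both groups, so whatever those strings mark cannot be told apart from AMH. The arrays carried ovarian transcripts, with the granulosa gene Foxl2 at 600.2 and 617 on the AMH arrays and at 539.3 and 395.1 on the control arrays, and the oocyte gene Zp3 at 2721.8 and 1977.8 with AMH against 2531.1 and 2133.5 in control. Zp3 does not stand for all oocyte genes, since 4 of 7 tested oocyte markers passed the threshold described below as lower with AMH, beside 11.9% of all tested genes. Among these 4, Gdf9 read 453.7 and 317.7 with AMH against 1724.9 and 1732.5 in control. Bmp15, another of them, read 22.6 and 22.3 with AMH, under the filter level given below, against 147.5 and 115.2 in control.

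Of the 14 probe sets, 8 (of 7 genes) were bright enough to enter the fit across all probe sets, and 6 were not. A probe set entered when its mean over the 4 arrays was above the lowest 40%, which corresponds to an intensity of about 27.8. The member nearest above that level was the dimmer probe set of Ptges, at 46.2 (the intensity of its mean log2 value), and the nearest below was the dimmer probe set of Hpgd, at 18.9. Changes are differences of log2(intensity + 16), AMH less control, with the limma standard error after the ± sign (n = 2 arrays per group), and a probe set counts as called when its adjusted p in that fit lies below 0.05. By this measure 3 of the 8 tested probe sets were higher with AMH (Ptgs2, Ptgis and 1 of Hpgd), 1 was lower (Ptgds) and 4 were not called. Of all 18626 tested probe sets 21.5% were called, 8.67% as higher and 12.8% as lower. The median change of the 8 was 0.62, against 0.02 for all tested probe sets, and that of all 14 was 0.04, against 0.01 for all probe sets. On 9 of the 14 the AMH arrays lay wholly on one side of the control arrays (6 above and 3 below), and so did 52.8% of all probe sets.

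**Figure D1:**
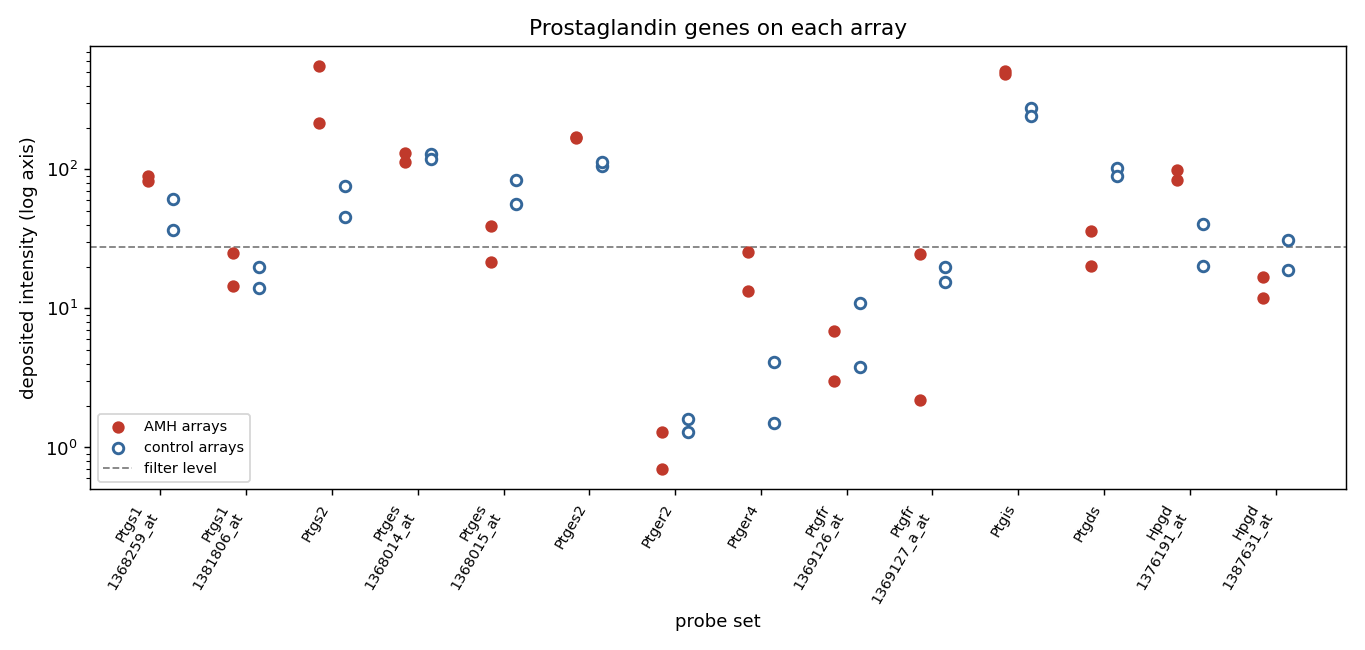
Deposited intensity (log axis) of the 14 prostaglandin probe sets, with the 2 AMH arrays as filled red points at left and the 2 control arrays as open blue points at right of each position; the dashed line is the filter level of 27.8. Ptgs2 and Ptgis lie higher on both AMH arrays, Ptgds lower, and the receptor probe sets all lie below the line.

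The first step of the pathway, the cyclooxygenases, differed most at Ptgs2, the inducible enzyme. Ptgs2 had intensities of 553.7 and 215.1 on the AMH arrays, against 45.7 and 76.5 on the control arrays. Both AMH arrays lay above both control arrays, and the ratio of an AMH array to a control array ran from 2.81 to 12.1 over the possible pairs. The fitted change was 2.26 ± 0.39, or 4.8-fold, and was called as higher. The AMH pools themselves were far apart, by 1.30 on the log2 scale, a gap wider than that of 98.9% of tested probe sets, whose median gap between AMH arrays was 0.26. The control pools differed by 0.58, wider than 93.8% of tested probe sets. Without AMH replicate 1 the change was 1.61 and without AMH replicate 2 it was 2.91, and both fits called it.

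Ptgs1, the cyclooxygenase that most tissues make constantly, had 90 and 82 at its brighter probe set on the AMH arrays, against 36.9 and 60.9 on the control arrays. The groups did not overlap there, but the change of 0.68 ± 0.25 was not called, in this fit or in any of 12 other settings. Its dimmer probe set, below the filter, read 25.2 and 14.4 on the AMH arrays and 14.1 and 19.9 on the control arrays, which overlap. The gap between the Ptgs1 control arrays, 0.54, was wider than that of 92.2% of tested probe sets.

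Among the terminal synthases Ptgis makes prostacyclin. It read 507.9 and 485.9 on the AMH arrays, against 275.8 and 241.6 on the control arrays, so that each AMH array was 1.76 to 2.1 times each control array. The change of 0.90 ± 0.16 (1.87-fold) was called. It stayed above 0 but was not called without control replicate 2 (0.81) or with the arrays scaled to the hybridization controls (0.44). Endothelial cells, where prostacyclin is a main product, gave 0 called markers among 5 tested by limma (0 at an unadjusted p under 0.05), and their 6 markers with a probe set summed to 885.5 and 1060 on the AMH arrays and 886.9 and 923 on the control arrays. The part of endothelial or other cells in the Ptgis values was not tested.

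Ptgds, the lipocalin-type synthase of prostaglandin D, moved the other way. Its values were 20.2 and 36.1 on the AMH arrays, against 101.6 and 89.2 on the control arrays, with no overlap. The change of -1.36 ± 0.26 (2.56-fold lower) was called. The first AMH value lies below the filter level, and so, narrowly, does the mean log2 value of the AMH arrays. Ptgds thus passed the filter, which uses mean log2 values, only through its control arrays. The size of the change depends on the constant added before taking logs: it was -1.67 with 4 added and -0.79 with 64 added. Without control replicate 1 the change was -1.28 and was not called.

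Ptges2 and Ptges, the prostaglandin E synthases of the set, each had a probe set well above the filter level, with different outcomes. Ptges2 read 169.7 and 168.8 on the AMH arrays, against 105.3 and 112.5 on the control arrays, a ratio of 1.5 to 1.61 over the pairs. Only 1.47% of tested probe sets had a smaller gap between the AMH arrays, yet the change of 0.57 ± 0.18 was not called here and was called in 3 of 13 other settings (median centring, quantile normalization and the lowest 60% left out). Ptges, the microsomal synthase that is often induced together with Ptgs2, read 112.5 and 131.5 on the AMH arrays and 129.5 and 118.3 on the control arrays at its brighter probe set, with overlap and a change of -0.02 ± 0.19. At its dimmer probe set it read 39.2 and 21.5 on the AMH arrays, against 84.1 and 56.2 on the control arrays, with no overlap and a change of -0.90 ± 0.29 that was not called, but was in 3 of 12 other settings (hybridization control scaling, the replicate block and without AMH replicate 1). The probe sets of Ptges thus lay 0.88 apart in their change, more than 74.1% of the 3061 genes with exactly 2 probe sets, and neither showed the direction of Ptgs2.

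Hpgd, which inactivates prostaglandins E and F, gave opposite readings at its probe sets. The brighter one read 98.7 and 83.5 on the AMH arrays, against 40.5 and 20.2 on the control arrays, with no overlap. Its change of 1.24 ± 0.28 (2.36-fold) was called, although it was not without control replicate 2 (0.92) or with hybridization control scaling (0.87). The dimmer one, below the filter, read 11.8 and 16.7 on the AMH arrays, against 31 and 18.9 on the control arrays, and there the AMH arrays lay below the control arrays. The changes at the 2 probe sets differed by 1.67, more than in 95.8% of genes with 2 probe sets, and 17.6% of those genes had groups that separated in opposite directions. The size at the brighter probe set also depended on the constant added, with 1.53 for 4 and 0.72 for 64. Whether the different 3′ to 5′ ratios of the groups (for GAPDH 6.37 and 6.56 with AMH, 1.17 and 1.27 in control) have a part in such splits was not tested, since the positions of the probe sets along their transcripts are not known here.

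The receptors were dim on all arrays and none entered the fit, so no receptor of the set was called or tested. Ptger4, a receptor for prostaglandin E that raises cAMP, read 25.3 and 13.3 on the AMH arrays, against 1.5 and 4.1 on the control arrays. Its groups did not overlap, with a difference of 0.89 on the log2 scale. All 4 values lie under the filter level, and the difference was 1.75 with 4 added and 0.31 with 64 added. Ptger2, the other cAMP-raising receptor for prostaglandin E, read 1.3 and 0.7 with AMH and 1.3 and 1.6 in control. Ptgfr, the receptor for prostaglandin F, read 6.9 and 3 with AMH against 3.8 and 10.9 in control at its dimmer probe set, and 24.8 and 2.2 with AMH against 15.6 and 19.9 in control at the other. Both Ptgfr probe sets overlapped between groups, and the wide gap between the AMH arrays at the second lay entirely below the filter level.

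The scaling of the arrays shifted the members' values. Scaling to the hybridization controls lowered the median change of all tested probe sets to -0.39, against 0.02 as deposited, and median centring gave 0.12. Under hybridization control scaling Ptgs2 was 1.84, Hpgd 0.87, Ptgis 0.44 and Ptgds -1.70, or 2.23, 1.26, 0.83 and -1.32 relative to that median. Ptges at its brighter probe set changed sign with the scaling, at -0.45 with hybridization controls, 0.04 with quantile normalization and 0.08 with median centring. The other 7 tested probe sets kept their sign under these 3 scalings.

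**Figure D2:**
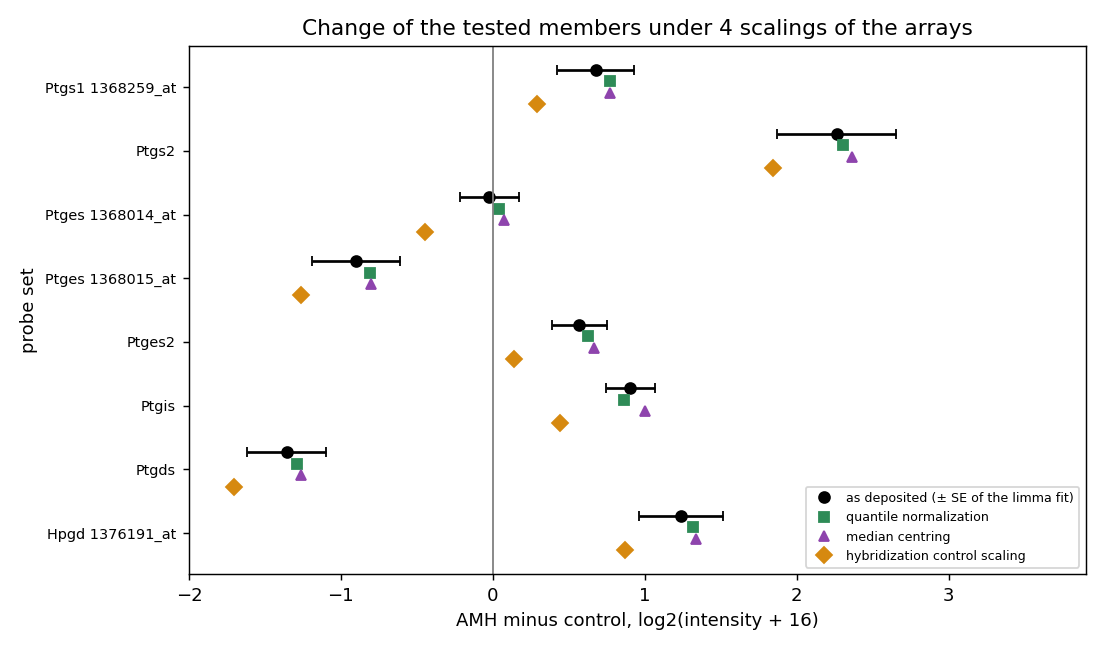
Difference of log2(intensity + 16), AMH less control, for the 8 tested probe sets, as deposited (black circles, ± SE of the limma fit) and under 3 other scalings of the arrays. Ptgs2 stays highest, from 1.84 to 2.36, and Ptgds stays lowest, from -1.70 to -1.26, while the brighter Ptges probe set sits near 0 on either side.

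Of the rest of the pathway, 26 further genes were listed by role, 24 of them had a probe set and 18 were tested. With each gene at its brightest tested probe set, 2 were higher with AMH, 3 lower and 13 not called, with a median change of 0.08. The 5 called of 18 stand beside 22.9% called of all 10622 tested genes, of which 11% were higher and 11.9% lower. The adjusted p-values given for genes outside the set come from the limma fit with Benjamini-Hochberg adjustment over all tested probe sets.

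Upstream of the cyclooxygenases, Pla2g4a, the cytosolic phospholipase that supplies them with arachidonate, was higher at 591.8 and 503 with AMH against 260.3 and 288.1 in control (0.95 ± 0.17, adjusted p = 0.00673). Pla2g1b, a secreted phospholipase, was lower at 43.3 and 56.3 with AMH against 202.1 and 137.8 in control (-1.48 ± 0.24, adjusted p = 0.00532). The other 5 tested phospholipases were not called, among them Pla2g15 (0.51 ± 0.17) and Pla2g2a (-0.22 ± 0.30), which had no settled direction: it was 0.23 without AMH replicate 1, 0.07 without control replicate 1 and -0.68, past the threshold, without AMH replicate 2. The call of Pla2g4a ended without control replicate 1 (adjusted p = 0.056) and with hybridization control scaling (0.114), over a range of 0.00158 to 0.114 in 13 settings.

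By limma 0 of the 6 other synthases were called, and 0 had an unadjusted p under 0.05, with changes from -0.11 for Prxl2b to 0.38 for Tbxas1, the thromboxane synthase. Ptger3, a receptor for prostaglandin E that lowers cAMP, was higher at 144.6 and 63.5 with AMH against 19.7 and 30.6 in control (1.47 ± 0.35, adjusted p = 0.0209). A dimmer probe set of Ptger3 read 32.5 and 25.4 with AMH against 27.4 and 52.8 in control, and was not called (-0.29 ± 0.30). The control mean of the first was under the filter level, its change was 0.87 with 64 added, and the call ended without control replicate 1 (0.0626) and without the filter (range 0.00105 to 0.0626 over 12 settings). Without AMH replicate 1 its change was 0.96 and without AMH replicate 2 it was 1.98. Ptgfrn, a partner that restrains Ptgfr, was not called (-0.30 ± 0.18).

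Downstream, Abcc4, which exports prostaglandins from cells, was lower at 292.1 and 224 with AMH against 461.9 and 421.5 in control (-0.75 ± 0.18, adjusted p = 0.0229). Ptgr1, a reductase acting after Hpgd in prostaglandin breakdown, was lower at 501.2 and 862.5 with AMH against 1186.3 and 1233.3 in control (-0.86 ± 0.23, adjusted p = 0.0336). Ptgr2, the other reductase, was not called (0.46 ± 0.21), except without AMH replicate 1 (0.66). The call of Ptgr1 also ended with no filter, median centring or no intensity trend, and both calls ended without control replicate 1 (0.164 and 0.0814) and without control replicate 2 (0.0798 and 0.0867), within ranges of 0.00346 to 0.164 for Abcc4 and 0.000196 to 0.0867 for Ptgr1 over 13 settings. Without AMH replicate 1 the change of Ptgr1 was -0.48. In the lipoxygenase branch, which competes for arachidonate, Lta4h was higher (1076 and 1069 with AMH against 590.7 and 595.2 in control, 0.84 ± 0.14, adjusted p = 0.00594) and Alox15 lower (28 and 18 with AMH against 75.3 and 110.4 in control, -1.47 ± 0.27, adjusted p = 0.00821), while Ltc4s (0.01 ± 0.23) was not called. Ephx2, an epoxide hydrolase kept in the same list though it lies outside the lipoxygenase route, was not called either (0.32 ± 0.27). Alox5 and Alox5ap, which start leukotriene synthesis, were among 5 of the 9 genes below the filter. The call of Lta4h ended with hybridization control scaling (0.251) and without control replicate 1 (0.0559), and that of Alox15 without control replicate 2 (0.0591), within ranges of 0.00218 to 0.251 and 0.00103 to 0.0591. The AMH mean of Alox15, 23, was under the filter level of 27.8, so this gene passed the filter only through its control arrays. With 64 added its change was -0.84.

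**Figure D3:**
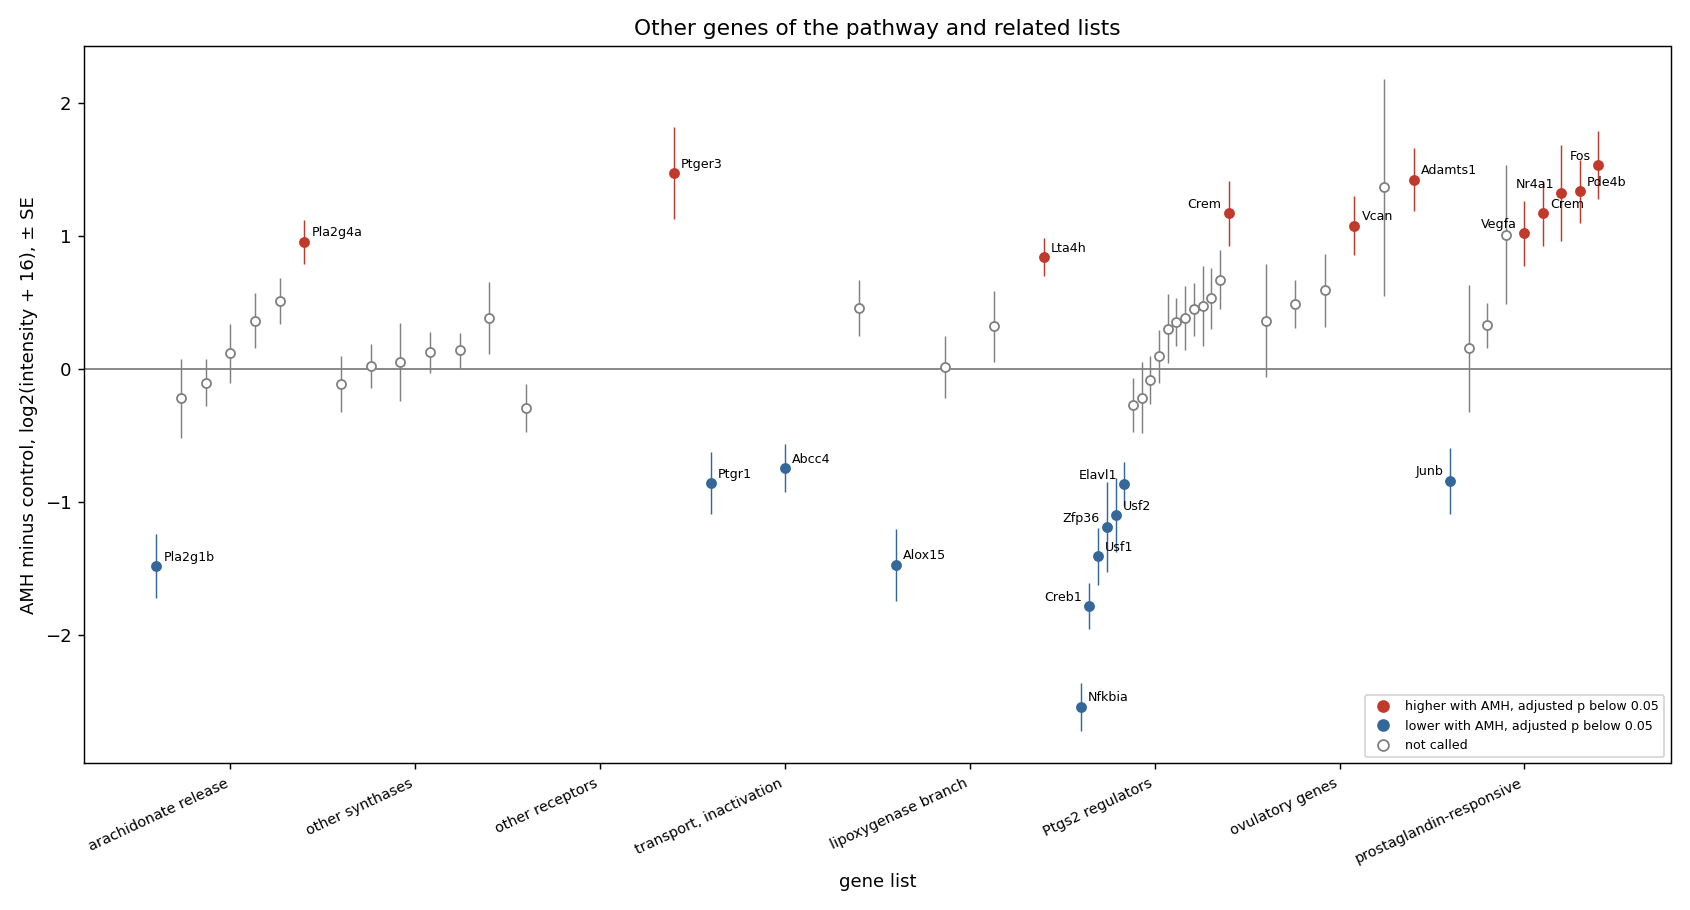
Difference of log2(intensity + 16), AMH less control, ± SE, for every tested gene of 8 lists, each gene at its brightest tested probe set; red points are called higher with AMH, blue lower and open grey points not called. The Ptgs2 regulators hold 6 called genes below 0 and 1 above, and the prostaglandin-responsive genes hold 5 above and 1 below.

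Of 18 tested genes known to regulate Ptgs2, as factors at its promoter or mRNA or as inflammatory signals and their receptors, 1 was higher and 6 were lower with AMH, beside 11% and 11.9% of all genes, and the list median was 0.00. Without AMH replicate 2, 4 were higher and 5 lower, with Cebpb, Il1r1 and Tnfrsf1a added as higher. Nfkbia, the inhibitor that retains NF-kappaB in the cytoplasm, was lower at 141.3 and 137.3 with AMH against 774.3 and 1019.2 in control (-2.54 ± 0.18, adjusted p = 0.000268). Creb1, which binds cAMP response elements, was lower at 97.8 and 107.7 with AMH against 389.4 and 396.7 in control (-1.79 ± 0.17, adjusted p = 0.000659). The remaining Creb1 probe sets were all below the filter and not tested, with changes of -0.08, 0.33 and -0.59. Usf1 and Usf2, which bind E-boxes such as the one printed for Ptgs2, were lower by fit values of -1.41 ± 0.22 and -1.10 ± 0.28 (adjusted p = 0.00429 and 0.0268). Usf1 read 69.1 and 55.5 with AMH and 218.4 and 167.8 in control, and a dimmer Usf1 probe set was called lower as well. Zfp36, which hastens decay of Ptgs2 mRNA, and Elavl1, which protects it, were both lower (-1.19 ± 0.34, adjusted p = 0.0406, and -0.87 ± 0.16, adjusted p = 0.00927). Another bright probe set of Elavl1 read 583.2 and 635.9 with AMH against 482.8 and 513.7 in control and was not called (0.28 ± 0.15), and with each gene at the mean of its probe sets 4 of the 18 were called, all lower.

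Crem, a cAMP-responsive factor, was the called regulator that was higher (650 and 377.8 with AMH against 202.9 and 221 in control, 1.17 ± 0.24, adjusted p = 0.0132). Crem has 5 other probe sets, of which 3 were tested and 0 called, with changes of 0.86, -0.24 and -0.46. Of those not called, Egr1 was highest (0.67 ± 0.22) and Il1b, an inflammatory inducer of Ptgs2, lowest (-0.27 ± 0.20). With control replicate 1 left out the calls of Elavl1 (0.0747) and Zfp36 (0.0555) ended, with control replicate 2 left out those of Usf2 (0.119) and Zfp36 (0.146), and with AMH replicate 2 left out that of Zfp36 (0.0704). The call of Crem ended with hybridization control scaling (0.0513), those of Usf2 and Zfp36 with no filter and that of Zfp36 with no intensity trend. Over all settings the ranges were 0.000676 to 0.0747 for Elavl1, 0.00215 to 0.146 for Zfp36, 0.00219 to 0.119 for Usf2 and 0.000215 to 0.0513 for Crem. Without AMH replicate 2 the change of Zfp36 was -0.68 (-0.71 with 64 added) and that of Usf2 -0.72, and without AMH replicate 1 Egr1 passed the threshold at 0.97.

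Genes that act beside Ptgs2 at ovulation were partly measured, with 6 of 13 tested, 2 higher and 4 not called (median 0.83), beside 11% of all genes called higher and 11.9% lower. The count of higher genes was 1 without control replicate 1 or with hybridization control scaling, and 3 without control replicate 2. Adamts1, a protease of the ovulating follicle, was higher at 331.6 and 453.2 with AMH against 108.6 and 166.8 in control (1.42 ± 0.24, adjusted p = 0.00594). Its substrate Vcan, a matrix proteoglycan, was higher at 485.7 and 362.7 with AMH against 159.1 and 228.2 in control (1.08 ± 0.22, adjusted p = 0.0125), a call that ended without control replicate 1 (0.0863) and with hybridization control scaling (0.0707, range 0.00259 to 0.0863). The hyaluronan genes of the cumulus matrix were not called, with Tnfaip6 at 172.4 and 323.3 with AMH against 17.1 and 275.1 in control (1.36 ± 0.82) and Has2 at 66.1 and 66.5 with AMH against 22.3 and 91.4 in control (0.36 ± 0.43). The control arrays of Tnfaip6 lay far apart, and its change was -0.20 without control replicate 1 and 2.93, past the threshold, without control replicate 2. Areg, Ereg, Btc and Pgr, which mark the ovulatory response, were below the filter.

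Of 9 tested genes known to answer prostaglandin or cAMP signals, 5 were higher and 1 lower, with a median of 1.02, beside 11% and 11.9% of all genes. The balance depended on the probe sets used: with each gene at the mean of its probe sets, 1 was higher and 2 were lower. Cited2 was not called at its brightest probe set (0.32 ± 0.17), while its other one was called lower, at 92.1 and 100.1 with AMH against 338.2 and 353.6 in control (-1.69 ± 0.17, adjusted p = 0.000823). Dimmer probe sets of Pde4b (-0.06 ± 0.30) and Vegfa (-0.05 ± 0.30) were not called. Fos was higher at 411.8 and 325.4 with AMH against 87.6 and 153 in control (1.53 ± 0.25, adjusted p = 0.00566) and Pde4b, which degrades cAMP, at 184.5 and 140.9 with AMH against 44.9 and 65.5 in control (1.33 ± 0.24, adjusted p = 0.00736). Nr4a1 (1.32 ± 0.36, adjusted p = 0.0355), Vegfa (1.02 ± 0.25, adjusted p = 0.0229) and Crem were higher as well, while Junb was lower (-0.84 ± 0.25, adjusted p = 0.0437). Star (1.01 ± 0.52) and Pde4d (0.15 ± 0.48) were not called, with Star at 382.9 and 86.5 on the AMH arrays, and both depended on which AMH array was used: without AMH replicate 1 they were 0.03 and -0.67, and without AMH replicate 2 they were 1.99 and 0.98, past the threshold. With hybridization control scaling 2 of these genes (Fos and Pde4b) were called higher and 1 lower. Further calls ended with no filter (Nr4a1 and Junb), with no intensity trend (Nr4a1 and Vegfa) and with quantile normalization or median centring (Junb). Without control replicate 1 the calls of Vegfa (0.153), Nr4a1 (0.11) and Junb (0.137) ended, without AMH replicate 1 those of Nr4a1 (0.0805, change 0.75) and Junb (0.0905), and without control replicate 2 that of Junb (0.231). The ranges over all settings were 0.00412 to 0.153 for Vegfa, 0.00102 to 0.11 for Nr4a1 and 0.00911 to 0.231 for Junb. Without control replicate 1 the change of Vegfa was 0.67, and with 64 added that of Junb was -0.52.

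The genes most like Ptgs2 over the 4 arrays were found by the Euclidean distance between log2 profiles, each centred on its mean, among 10550 genes. The nearest was Cthrc1, which encodes a secreted glycoprotein, at a distance of 0.17, with 949.9 and 391.2 on the AMH arrays and 90.1 and 166.5 on the control arrays. Isyna1, an enzyme of inositol synthesis, followed at 0.56, then Mrgprf at 0.61, the lysosomal protease gene Ctsc at 0.62 and the lactate transporter gene Slc16a3 at 0.68. The median distance of all genes was 2.44. In all 5, as in Ptgs2, AMH replicate 1 was the highest array and AMH replicate 2 the next, an order that their choice by nearness to Ptgs2 favours. Profiles over 4 arrays share the same pools and the same scaling, so nearness describes these arrays only.

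**Figure D4:**
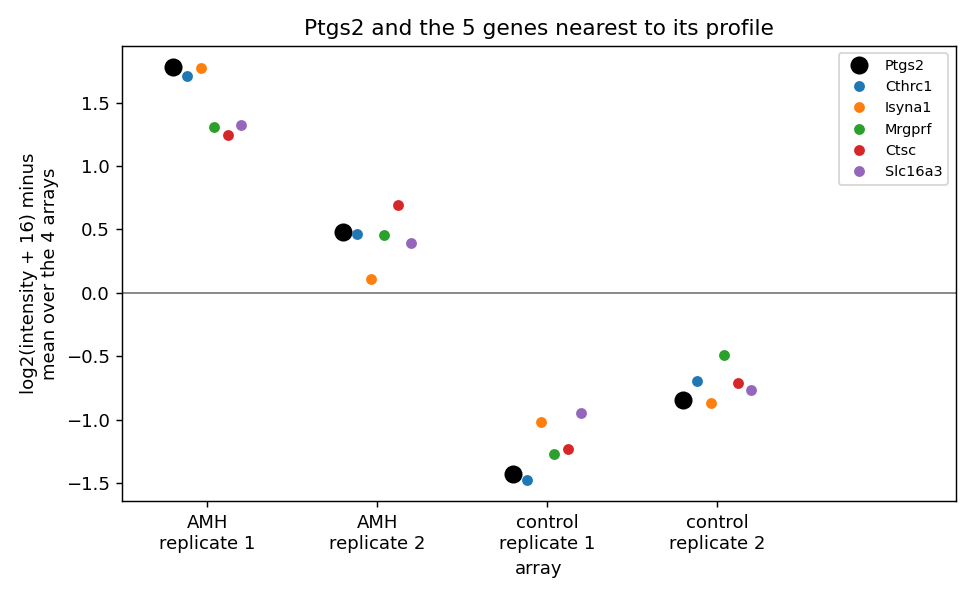
Value on each array of log2(intensity + 16) minus the gene's mean over the 4 arrays, for Ptgs2 (large black points) and the 5 genes nearest to its profile; points of one array are spread sideways by gene. All 6 genes are highest on AMH replicate 1, next on AMH replicate 2 and below 0 on both control arrays, a likeness by which the 5 were chosen.

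Markers of the cell types in which these genes are known to be active were read on the same arrays. The called counts below stand beside 11% of all 10622 tested genes called higher and 11.9% called lower. Summed over 9 granulosa markers the AMH arrays read 5705 and 3544, against 2687 and 2231 on the control arrays, with 2 of 9 called higher. The largest values in the first granulosa sum were those of Inha (1930.6, not called) and Inhbb (1473.9, called higher). The 6 theca and steroidogenic markers summed to 2324 and 468 with AMH and 421.5 and 329.8 in control, with 0 of 3 tested genes called by limma (1 at an unadjusted p under 0.05) and most of the first sum in Hsd3b1 (1840.3). The 9 macrophage and leukocyte markers summed to 776 and 1976 with AMH against 1124 and 1018 in control, with 1 of 7 tested called higher (Cd68). The change of Cd68 was 1.04 ± 0.21, and 0.63 and not called with hybridization control scaling. Lyz2, which was not called, read 133 and 837 on the AMH arrays against 283.3 and 290.9 in control. The 8 mast cell markers summed to 189.7 and 258.6 with AMH against 262.5 and 253.5 in control, with 2 tested and 0 called (0 at an unadjusted p under 0.05). Smooth muscle and pericyte markers summed to 404.3 and 570.1 with AMH against 593.2 and 598.2 in control, with 2 of 6 tested called lower. Surface epithelium markers summed to 1653 and 3247 with AMH against 3813 and 3139 in control with 0 of 5 called (2 at an unadjusted p under 0.05), and stromal fibroblast markers to 12978 and 17026 with AMH against 17638 and 17118 in control with 1 called each way among 7. The stromal gene called lower, Col1a1, read 336.4 and 639.3 with AMH against 4330.2 and 3363.5 in control. The other Col1a1 probe set read 662 and 973 with AMH against 1398.9 and 981.6 in control and was not called (-0.54 ± 0.23). Oocyte markers summed to 7356 and 7740 with AMH against 10375 and 9743 in control, with 4 of 7 called lower. Of these 4, Bmp15 passed the filter only through its control arrays (147.5 and 115.2, against 22.6 and 22.3 with AMH). Ooep (-0.61 ± 0.17) was not called with median centring (-0.51), and its change was -0.48 without control replicate 1. No marker of these lists is listed at 0. The part of any of these cell types in the values of the prostaglandin genes was not tested.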

How the data were processed

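The authors deposited 1 table of linear intensities for 31099 probe sets on 4 arrays (1-colour Affymetrix, biotin label, per the labels' protocols). The sources used here do not name the summarisation software. Sample titles gave each array's group and number. The deposited intensities were used without further scaling as log2(intensity + 16), which understates changes of dim probe sets. Left out were 57 control probe sets of the manufacturer and the dimmest 40% of the others (by mean log2 value), so that 18626 entered the limma fit (lmFit and trended eBayes, limma 3.58.1 in R 4.3.3). The test was two-sided, adjusted by Benjamini-Hochberg over these 18626, with a threshold of 0.05. Alternatives covered the added constant, filter, scaling, trend, replicate block and each array left out. No label says that replicate numbers pair the pools, so no block was used.

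Genes were named from the platform annotation (20832 probe sets with 1 symbol, 436 with several, 9831 with none; 20764 matched RefSeq by Entrez identifier). The members and the gene lists were chosen with earlier results of these data known. The text names every member probe set, every called gene of the 8 lists and, of those not called, the highest and lowest of each. Genes named outside this rule (Alox5, Alox5ap, Areg, Ereg, Btc, Pgr, Foxl2, Zp3, Gdf9, Bmp15, Ooep, Inha, Inhbb, Cd68, Lyz2, Col1a1, Hsd3b1, Cited2, Cebpb, Il1r1 and Tnfrsf1a) were named after their values were seen. The number of arrays limits the precision of every value. Figures were drawn with matplotlib 3.10.9.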

Additional observations from a re-analysis of the deposited data

How the results depend on the processing

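Besides the settings in the report, each result was recomputed with 4 or 64 added before log2, with no filter or the lowest 60% left out, with quantile normalization, median centring or hybridization control scaling, without the intensity trend, with the replicate number as a block, without each array in turn, and for gene lists at the mean over probe sets. The number of called probe sets was 3999, and 1382 to 5133 with 1 array left out. It fell to 1382 without control replicate 1 and 1890 without control replicate 2, fits in which the spread comes from the AMH arrays alone. The share of calls that were lower was also moved by scaling, with 1614 higher and 2385 lower as deposited, 2015 and 1855 with median centring and 146 and 4935 with hybridization control scaling. The count of called prostaglandin probe sets was 4, and 2 to 5 with 1 array left out, the lowest without control replicate 2. Ptgs2 was called in all 13 settings, with changes from 1.61 to 2.91 (both from leaving out an AMH array). The count of called pathway genes was 5, fell to 3 with no filter and ran from 1 (without control replicate 1) to 6 with 1 array left out, with 3 without control replicate 2. No called prostaglandin probe set and no called gene of the lists changed sign in the settings fitted per probe set (the mean over probe sets was run for counts of the lists). With the replicate block 3567 probe sets, 5 member probe sets and 5 pathway genes were called, and the change of Ptgs2 was 2.26. Same-numbered arrays did not deviate together (correlation of deviations -0.000835), and no label says that a number marks a shared litter or day. Values under about 27.8, as for the Ptger2, Ptger4 and Ptgfr probe sets, are too close to the dim end of the arrays to give a size of change.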
